A study of Mus musculus with 15 samples.

Results

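The genes described here are 9 integrin chains of the vessel wall and 1 kinase-like adaptor that binds integrin tails: Itga1, Itga5, Itga7, Itga8, Itga9, Itgav, Itgb1, Itgb3, Itgb5 and Ilk. They were taken by symbol from a table of transcript abundances, after the Ensembl transcripts of each gene had been summed with the GENCODE M21 annotation, and are 10 of 32945 genes. All 10 were found. The study asked whether liensinine, a plant alkaloid, alters the vascular remodeling that angiotensin II causes, with MAPK and TGF-β/Smad signalling named in its title. Vascular tissue of C57BL/6 mice aged 10 weeks was sequenced in 3 groups of 5 libraries each: Lien (libraries 11 to 15, labelled as hypertension with Lien), AngII (libraries 6 to 10, labelled as hypertension) and NS (libraries 1 to 5, labelled as normal). All groups shared the strain and the age, and no genetic change is named in the labels. The labels state neither dose, route, duration or sex nor which vessel was taken. The extraction note speaks of hearts, whereas each sample is labelled as vascular tissue.

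Integrins are receptors made of 1 alpha and 1 beta chain that hold cells to the surrounding matrix and link it, through adaptors at the short beta tail, to the actin cytoskeleton. In arteries the beta chain encoded by Itgb1 pairs with several alpha chains of smooth muscle, among them the fibronectin receptor chain Itga5, the collagen receptor chain Itga1, the laminin receptor chain Itga7 and the nephronectin receptor chain Itga8. Itgav pairs with Itgb3 or Itgb5, among others, to bind vitronectin and to release active TGF-β from its latent complex. Ilk, integrin-linked kinase, sits on beta tails with the proteins of the Lims and Parv genes and ties them to actin.

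The libraries were close in the sum of all abundances, which ran between 477095 and 569546 FPKM (fragments per kilobase of transcript, scaled to the size of the library). The share of mitochondrial genes in this sum was less even, from 5.18% in AngII 9 to 22.0% in AngII 10, with 21.5% in Lien 13. The 10-gene smooth muscle marker list (Acta2, Myh11, Tagln and others) had a mean log2(FPKM + 1) of 4.96 to 7.51 in Lien, 6.12 to 7.17 in AngII and 6.27 to 7.24 in NS, with the lowest value in Lien 13. Acta2 and Myh11 were never at 0, at 188 to 1928 and 49.1 to 455 FPKM. Other tissues were present to unequal extents. The 12-gene cardiomyocyte list averaged 0.57 to 3.66 in Lien, 0.46 to 5.22 in AngII and 0.67 to 5.76 in NS, and Myh6 was listed at 0 in at least 1 library. The 12-gene skeletal muscle list reached 2.33 in Lien, 6.17 in AngII (library 9) and 8.24 in NS (library 3), and the 12-gene nerve and Schwann cell list ran between 1.25 and 5.27 in Lien, 2.35 and 5.17 in AngII, and 1.49 and 5.31 in NS. In bulk tissue, fewer cells of a type and less RNA per cell cannot be told apart.

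None of the 10 genes passed the test in any of the 3 comparisons. With limma on log2(FPKM + 1) and Benjamini-Hochberg adjustment over the 15588 genes tested, 0 of 10 were called at an adjusted p under 0.05 in Lien minus AngII, where 0.0128% of all genes tested were called, 0 of 10 in AngII minus NS, where 0.077% were called, and 0 of 10 in Lien minus NS, where 0.231% were called. At an unadjusted p under 0.05 the counts were 1 of 10 in Lien minus AngII (6.4% of all genes), 0 of 10 in AngII minus NS (7.04%) and 1 of 10 in Lien minus NS (7.06%), and the gene was Itgb3 both times. The groups overlapped for every one of the 10 genes in every comparison, while 0.982%, 2.03% and 1.8% of all genes had groups that did not overlap in Lien minus AngII, AngII minus NS and Lien minus NS. The smallest adjusted p among the 10 was 0.740 in Lien minus AngII, 0.720 in AngII minus NS and 0.660 in Lien minus NS. Their median log2 differences were -0.11, 0.04 and 0.03 in these comparisons, against -0.13, 0.12 and -0.01 for all genes tested. Lien minus AngII and AngII minus NS share the AngII libraries, and the 2 comparisons with NS share the NS libraries. The 95% intervals show which sizes of difference remain possible with 5 libraries a group.

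**Figure D1:**
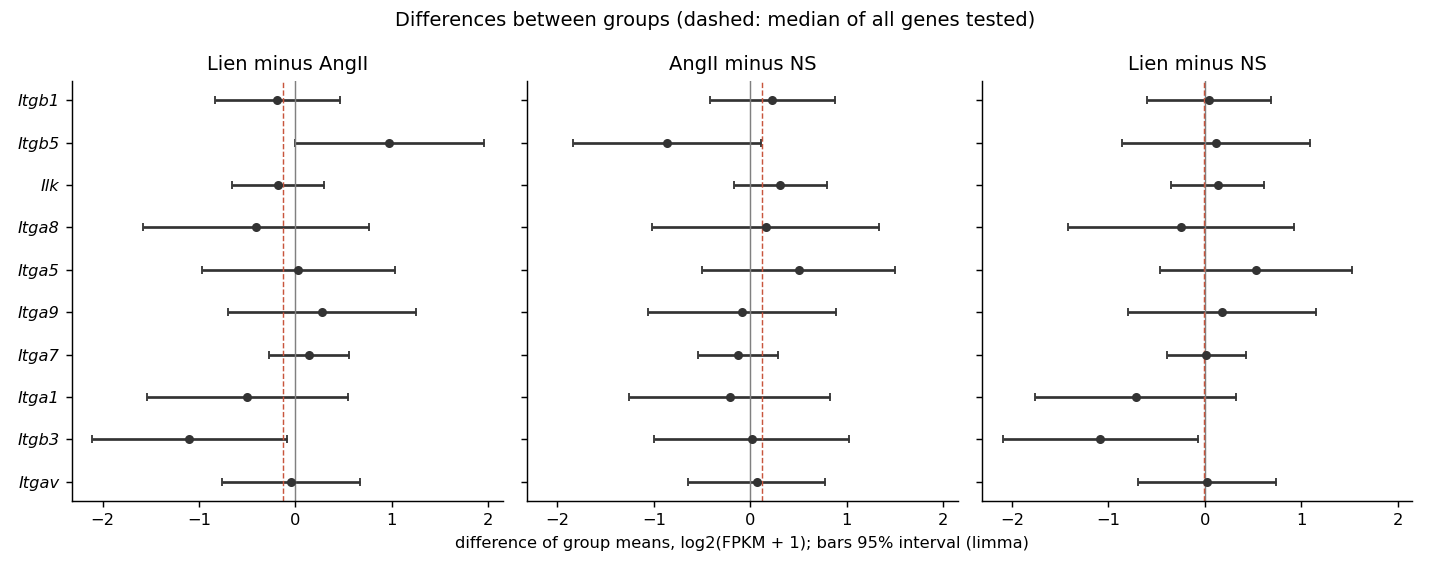
Difference of group means on the log2(FPKM + 1) scale for the 10 genes (rows, in order of mean level) in Lien minus AngII, AngII minus NS and Lien minus NS, with 95% intervals from limma as bars and the median of all genes tested as a dashed line. All intervals cross 0 except those of Itgb3 in Lien minus AngII (-2.11 to -0.09) and Lien minus NS (-2.10 to -0.07), neither of which passed after adjustment.

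The genes differed widely in level, and their order is given on the FPKM scale, which is per length. The values sum all Ensembl transcripts of a gene, those not annotated as protein-coding included. Itgb1 led with a mean of 237 FPKM over the 15 libraries, above 98.6% of the genes tested. Itgb5 (110.2), Ilk (74.6), Itga8 (66.4), Itga5 (46.7), Itga9 (26.4), Itga7 (16.5), Itga1 (10.8), Itgb3 (9.19) and Itgav (2.82 FPKM) followed. Itgb1 exceeded Itgb5 in 15 of 15 libraries and Itga5 exceeded Itga9 in 15 of 15. All other neighbours changed places in at least 1 library, so that their order was not fixed: the higher by mean was above the next in 12 of 15 libraries for Itgb5 over Ilk, 10 for Ilk over Itga8, 11 for Itga8 over Itga5, 13 for Itga9 over Itga7, 12 for Itga7 over Itga1, 11 for Itga1 over Itgb3 and 14 for Itgb3 over Itgav. Among the 18 alpha chains in the table, Itga8 made up 28.3% of the summed alpha FPKM on average, Itga5 19.8% and Itga9 11.5%, and the 6 alpha chains described here together made up 74.3% (range 54.8% to 84.3%). Of the 8 beta chains, Itgb1 took 62.2% and Itgb5 28.8%, with Itgb3 at 2.52%. Itgb6, an epithelial chain, was listed at 0 in every library. The ratio of Itgb1 to the sum of these 6 alpha chains was 1.41 ± 0.32 in Lien, 1.51 ± 0.18 in AngII and 1.47 ± 0.25 in NS (SD, n = 5 each), so the difference between groups was smaller than the spread within each.

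**Figure D2:**
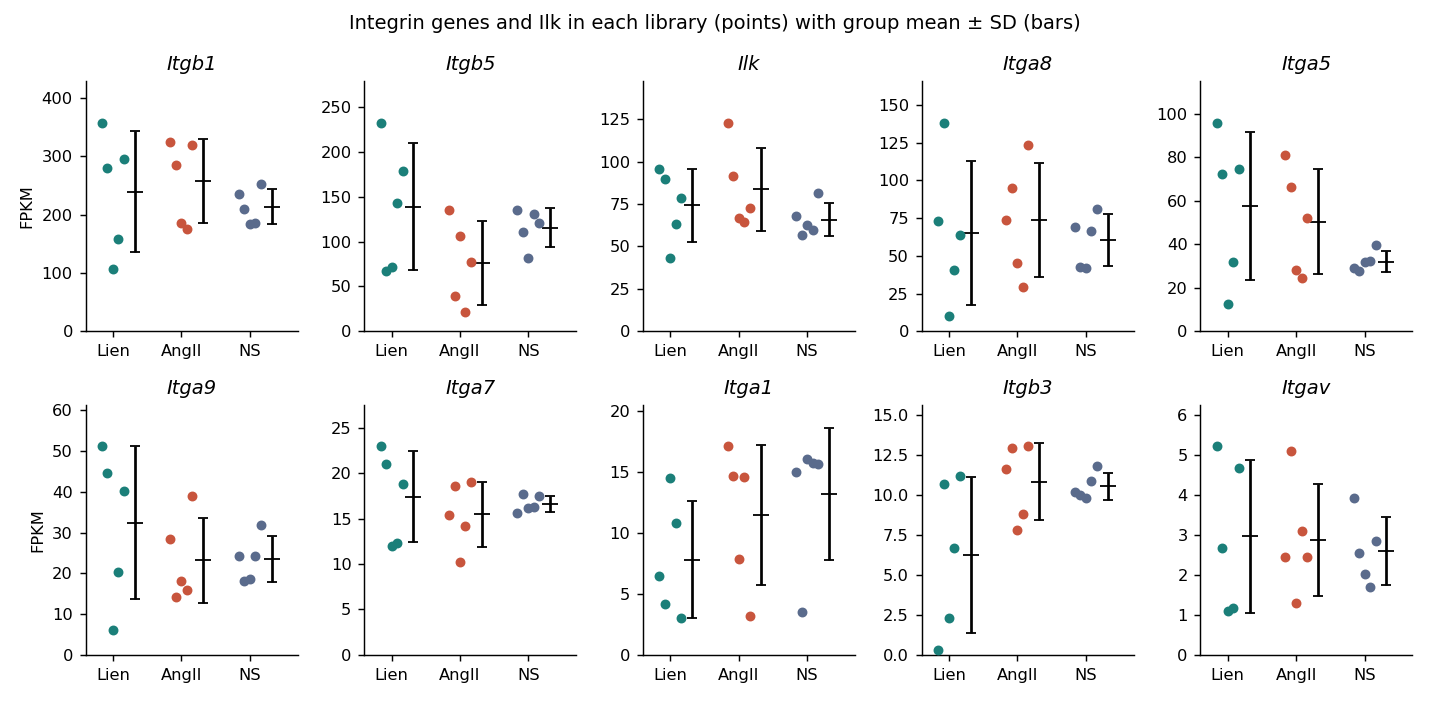
FPKM of each gene (panels, in order of mean level) in every library (points) of the Lien, AngII and NS groups, with the group mean and SD (n = 5) as a bar beside the points. The groups overlap in all 10 panels, and the NS points lie closest together for every gene except Itga1.

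Itgb1 (ENSMUSG00000025809, chr8:128685654-128733200, plus strand, GRCm38) encodes the beta chain shared by most matrix receptors of smooth muscle. It measured 357, 279.7, 106, 157 and 296 FPKM in Lien 11 to 15, 324, 285, 186, 174 and 319 in AngII 6 to 10, and 235, 209.8, 184, 186 and 253 in NS 1 to 5. Lien held both the highest and the lowest library, Lien 11 and Lien 13, and the NS values lay within the Lien range. Group means were 239 ± 104 FPKM in Lien, 258 ± 72.4 in AngII and 214 ± 30.2 in NS (SD, n = 5 each). The differences were -0.19 (SE 0.30, adjusted p = 0.850) for Lien minus AngII, 0.23 (SE 0.30, adjusted p = 0.847) for AngII minus NS and 0.04 (SE 0.30, adjusted p = 0.987) for Lien minus NS.

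Nearly all of Itgb1 was its main transcript, ENSMUST00000090006, which made up 95.2% to 99.9% of the gene's FPKM per library. The annotated transcript ENSMUST00000149116, called the cassette transcript here, carries an exon of 81 bases that the main transcript lacks (chr8:128726983-128727063, plus strand, GRCm38), of which the first 72 are coding. In textbooks a muscle form of the beta 1 chain, made in the heart and skeletal muscle, has its tail encoded by such an extra exon. The coding part is shown because the results that follow turn on it. Capitals mark the 72 coding bases of this exon and lower case the last 15 bases of the exon before it, read from the GENCODE M21 transcript.
Itgb1 cassette exon: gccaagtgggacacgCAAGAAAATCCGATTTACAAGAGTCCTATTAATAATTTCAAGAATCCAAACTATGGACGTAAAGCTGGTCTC

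The Itgb1 cassette transcript measured 0.173, 0.614, 0.740, 0.486 and 0.139 FPKM in Lien 11 to 15, 0.216, 0, 1.66, 0.0671 and 0.0891 in AngII 6 to 10, and 3.92, 0.105, 4.24, 1.78 and 7.27 in NS 1 to 5. NS held the 3 highest libraries, NS 5, NS 3 and NS 1, but also one of the 4 lowest, NS 2. The mean was 0.431 ± 0.266 FPKM in Lien, 0.406 ± 0.705 in AngII and 3.46 ± 2.71 in NS (SD, n = 5 each). The differences were 0.11 (SE 0.44, adjusted p = 0.970) for Lien minus AngII, -1.49 (SE 0.44, adjusted p = 0.504) for AngII minus NS and -1.37 (SE 0.44, adjusted p = 0.545) for Lien minus NS, over 30435 transcripts tested. The cardiomyocyte list is set beside it without a test. The 7 libraries with a list mean of at least 2.64 (Lien 12, Lien 13, Lien 14, AngII 8, NS 1, NS 4 and NS 5) held 0.486 to 7.27 FPKM. Among the other 8 libraries, with a list mean of at most 1.26, only NS 3 exceeded 0.216 FPKM. Within the 7 the transcript was mostly higher where the list was higher. Lien 14 (list mean 2.64) and Lien 12 (2.99) held the least, 0.486 and 0.614 FPKM, and NS 5 (5.76) held the most, 7.27 FPKM. Between these the order of the list was not kept throughout. Lien 13 (list mean 3.66) held 0.740 FPKM and NS 4 (3.05) held 1.78, while AngII 8 (5.22) held 1.66 and NS 1 (4.87) held 3.92. NS 3 had the highest skeletal muscle list mean (8.24), whereas AngII 9, with the next highest (6.17), held 0.0671 FPKM of the transcript. What part other muscle had in this difference was not tested. The annotated model of the cassette transcript is a fragment of 711 bases with 4 exons and shares bases with the main transcript, so its value also depends on how reads were divided between transcripts.

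**Figure D3:**
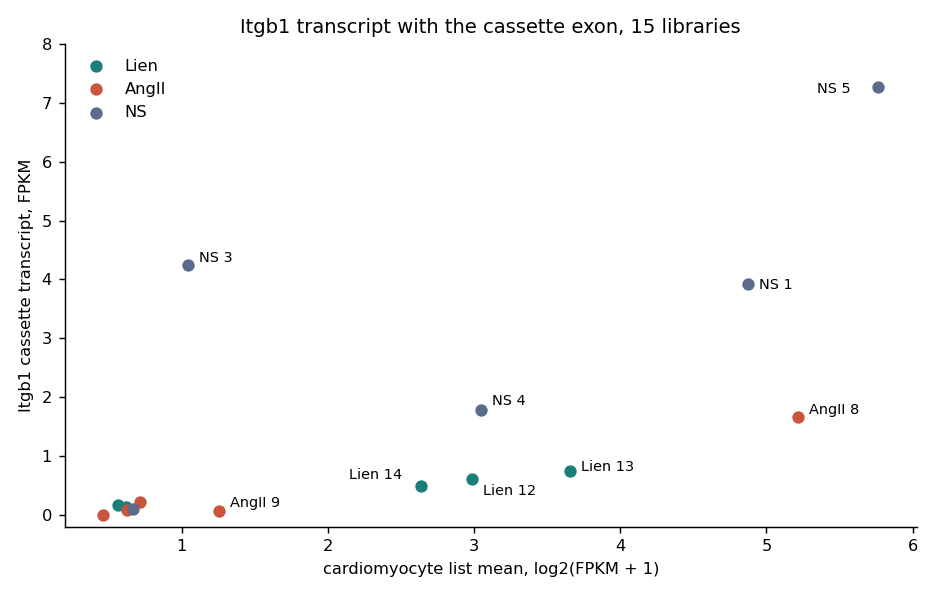
FPKM of the Itgb1 transcript with the cassette exon (vertical axis), against the mean log2(FPKM + 1) of the 12-gene cardiomyocyte list (horizontal axis) in 15 libraries coloured by group. AngII 8, NS 1, NS 4 and NS 5 are high on both axes, and NS 3 is high in this transcript at a list mean of 1.04. Lien 12, Lien 13 and Lien 14 have list means of 2.64 to 3.66 and hold 0.486 to 0.740 FPKM.

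Itga5 (ENSMUSG00000000555, chr15:103344286-103366763, minus strand) encodes the alpha chain of the fibronectin receptor. Its level was 95.99, 72.2, 12.6, 31.96 and 74.9 FPKM in Lien 11 to 15, 81.1, 66.2, 28.3, 24.4 and 52.2 in AngII 6 to 10, and 28.98, 27.8, 31.8, 32.1 and 39.7 in NS 1 to 5. In both Lien and AngII 3 libraries lay above 50 FPKM and 2 lay below 33 FPKM, while the NS libraries stood close together. The mean was 57.5 ± 34.2 FPKM in Lien, 50.4 ± 24.3 in AngII and 32.1 ± 4.64 in NS (SD, n = 5 each). The Itga5 differences were 0.03 (SE 0.47, adjusted p = 0.986) for Lien minus AngII, 0.50 (SE 0.47, adjusted p = 0.794) for AngII minus NS and 0.53 (SE 0.47, adjusted p = 0.910) for Lien minus NS, and the Lien minus NS interval of -0.47 to 1.53 includes both no difference and more than a doubling.

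Itga8 (ENSMUSG00000026768, chr2:12106632-12301922, minus strand) encodes the alpha chain of a receptor for nephronectin and fibronectin found on contractile smooth muscle. Across the libraries it came to 73.2, 138, 10.03, 40.5 and 64.1 FPKM in Lien 11 to 15, 73.5, 95.3, 45.6, 29.6 and 124 in AngII 6 to 10, and 69.3, 42.7, 42.02, 66.3 and 81.1 in NS 1 to 5. Lien 12 was the highest and Lien 13 the lowest of all 15, a 13.8-fold span within 1 group. Group means of Itga8 were 65.2 ± 47.6 FPKM in Lien, 73.5 ± 37.8 in AngII and 60.3 ± 17.3 in NS (SD, n = 5 each). Its differences were -0.41 (SE 0.55, adjusted p = 0.822) for Lien minus AngII, 0.16 (SE 0.55, adjusted p = 0.948) for AngII minus NS and -0.25 (SE 0.55, adjusted p = 0.970) for Lien minus NS. Without Lien 13, Itga8 differed by 0.13 in Lien minus AngII and by 0.29 in Lien minus NS, so both signs turned with that library. An antisense gene, E030013I19Rik, overlaps 372 of its 7368 exonic bases, and the labels do not say whether strand was used.

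Itgav (ENSMUSG00000027087, chr2:83724397-83806916, plus strand) encodes the alpha chain that pairs with the Itgb3 and Itgb5 chains, and it was the lowest of the 10 genes. It gave 5.22, 2.67, 1.11, 1.17 and 4.68 FPKM in Lien 11 to 15, 2.45, 5.11, 1.29, 3.10 and 2.46 in AngII 6 to 10, and 3.92, 2.54, 2.02, 1.69 and 2.84 in NS 1 to 5. No library reached 6 FPKM, and Lien 13 and Lien 14 held the lowest values. The group means were 2.97 ± 1.92 FPKM in Lien, 2.88 ± 1.40 in AngII and 2.60 ± 0.861 in NS (SD, n = 5 each). The Itgav differences came to -0.04 (SE 0.33, adjusted p = 0.969) for Lien minus AngII, 0.07 (SE 0.33, adjusted p = 0.964) for AngII minus NS and 0.02 (SE 0.33, adjusted p = 0.994) for Lien minus NS.

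Itgb3 (ENSMUSG00000020689, chr11:104608000-104670476, plus strand) encodes the beta chain of the vitronectin receptor and of the platelet fibrinogen receptor. It stood at 0.310, 10.7, 2.30, 6.67 and 11.2 FPKM in Lien 11 to 15, 11.6, 12.9, 7.81, 8.83 and 13.03 in AngII 6 to 10, and 10.2, 10.01, 9.77, 10.8 and 11.8 in NS 1 to 5. All AngII and NS libraries lay between 7.81 and 13.03 FPKM, whereas Lien ran between 0.310 in Lien 11 and 11.2 in Lien 15, a level shared with the other groups. Means of Itgb3 were 6.22 ± 4.87 FPKM in Lien, 10.8 ± 2.39 in AngII and 10.5 ± 0.822 in NS (SD, n = 5 each). It had the lowest difference of the 10 genes in Lien minus AngII and in Lien minus NS, at -1.10 (SE 0.47, adjusted p = 0.740) for Lien minus AngII, 0.02 (SE 0.47, adjusted p = 0.993) for AngII minus NS and -1.08 (SE 0.47, adjusted p = 0.660) for Lien minus NS. Its unadjusted p was 0.0353 in Lien minus AngII and 0.0376 in Lien minus NS. Lien 11 carried much of the size of these differences: without it they were -0.59 in Lien minus AngII and -0.57 in Lien minus NS. The adjusted p in Lien minus AngII was nevertheless lower without Lien 11, at 0.296 (limma), and still short of the threshold. The other annotated Itgb3 transcript was listed at 0 in all 5 Lien and all 5 NS libraries and held at most 0.493 FPKM in AngII, in AngII 7.

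Itgb5 (ENSMUSG00000022817, chr16:33829665-33949338, plus strand) encodes the other main partner of the Itgav chain. Its values were 233, 67.8, 71.3, 143 and 179 FPKM in Lien 11 to 15, 135, 38.8, 106, 21.7 and 76.99 in AngII 6 to 10, and 135, 111, 81.4, 131 and 121 in NS 1 to 5. Lien 11 stood highest and AngII 9 lowest, and 3 of 5 Lien libraries lay above every AngII library. Means of Itgb5 were 139 ± 70.9 FPKM in Lien, 75.8 ± 46.8 in AngII and 116 ± 21.4 in NS (SD, n = 5 each). It had the highest difference of the 10 genes in Lien minus AngII and the lowest in AngII minus NS, at 0.98 (SE 0.46, adjusted p = 0.740) for Lien minus AngII, -0.86 (SE 0.46, adjusted p = 0.720) for AngII minus NS and 0.12 (SE 0.46, adjusted p = 0.981) for Lien minus NS. The intervals ran from -0.000971 to 1.95 in Lien minus AngII and from -1.83 to 0.12 in AngII minus NS. Without AngII 9 the differences were 0.60 in Lien minus AngII and -0.49 in AngII minus NS.

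Itgb5 also varied in which transcripts it was made of. Its main transcripts are ENSMUST00000069345, the full transcript of 15 exons, and ENSMUST00000232262, a shorter model of 11 exons called the 29-base transcript here, with ENSMUST00000115028 as a minor one. The 29-base transcript and the minor one use a splice site that adds 29 bases to an exon near the end of the coding region (chr16:33947853-33947881, plus strand, GRCm38), a length that is not a multiple of 3 and so moves the reading frame of the tail. The join is shown because this choice separates the full transcript from the 29-base transcript and the minor one. The models also differ elsewhere: the 29-base one has 2130 bases in 11 exons. The full one has 3056 bases and the minor one 3282, each in 15 exons. A share of FPKM in transcripts with the 29 bases thus does not measure use of this splice site alone. Capitals mark the 29 added bases, and 15 bases on each side are in lower case.
Itgb5 29-base transcript: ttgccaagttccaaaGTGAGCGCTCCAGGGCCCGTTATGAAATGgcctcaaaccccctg
Itgb5 full transcript: ttgccaagttccaaagcctcaaaccccctg

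The share of transcripts with the 29 bases was taken of the summed FPKM of the full, the minor and the 29-base transcript. This percentage was 71.01, 30.1, 70.2, 75.6 and 74.8 in Lien 11 to 15, 21.5, 38.6, 36.9, 4.38 and 16.1 in AngII 6 to 10, and 72.7, 73.3, 28.3, 72.5 and 24.02 in NS 1 to 5. Libraries fell near 70% to 76% or below 39%, and both kinds occurred in Lien and in NS, while all 5 AngII libraries lay at 38.6% or lower. The mean share was 64.4% ± 19.3 in Lien, 23.5% ± 14.4 in AngII and 54.2% ± 25.6 in NS (SD, n = 5 each). The 29-base transcript alone measured 158, 18.3, 47.8, 101 and 126 FPKM in Lien 11 to 15, 6.67, 12.9, 35.1, 0 and 10.6 in AngII 6 to 10, and 90.1, 74.7, 18.7, 90.8 and 6.59 in NS 1 to 5. Lien held the 3 highest libraries, and no AngII library exceeded 35.1 FPKM. Its differences were 3.08 (SE 0.93, adjusted p = 0.841) in Lien minus AngII, -2.21 (SE 0.93, adjusted p = 0.731) in AngII minus NS and 0.87 (SE 0.93, adjusted p = 0.941) in Lien minus NS. For the full transcript they were -0.22 (SE 0.45, adjusted p = 0.935) in Lien minus AngII, 0.03 (SE 0.45, adjusted p = 0.995) in AngII minus NS and -0.19 (SE 0.45, adjusted p = 0.978) in Lien minus NS. Over all 10 genes, 0 of 25 transcripts tested were called in Lien minus AngII, AngII minus NS and Lien minus NS, where 0.0131%, 0.0164% and 0.0263% of all transcripts were called. At an unadjusted p under 0.05 there were 4, 2 and 2 of 25, against 5.61%, 6.44% and 6.42% of all transcripts. The 3 transcripts share most of their bases, so these values depend on how the authors' software divided reads among them, by a method the labels do not state.

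**Figure D4:**
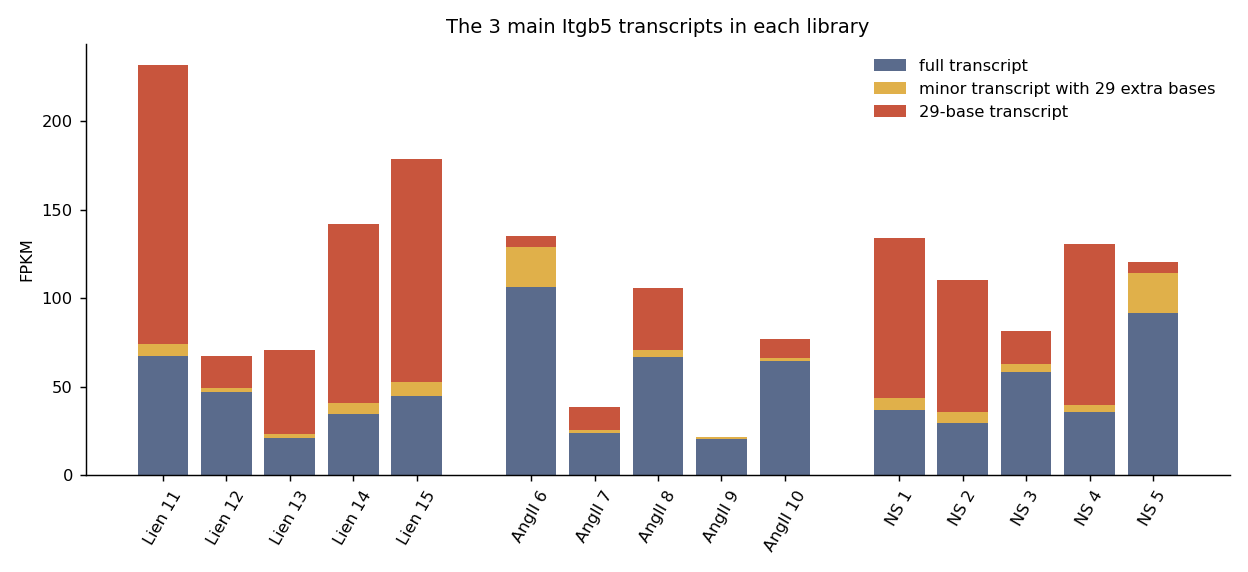
FPKM of the full, the minor and the 29-base transcript of Itgb5 stacked in each library of the Lien, AngII and NS groups, 1 library per bar. The 29-base transcript is the taller part in 4 of 5 Lien bars and 3 of 5 NS bars and in none of the AngII bars.

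Itga1 (ENSMUSG00000042284, chr13:114953096-115101964, minus strand) encodes a collagen receptor alpha chain. It was measured at 6.43, 4.19, 14.5, 10.8 and 3.06 FPKM in Lien 11 to 15, 17.1, 14.7, 7.82, 14.5 and 3.19 in AngII 6 to 10, and 14.9, 3.50, 16.05, 15.7 and 15.7 in NS 1 to 5. Lien 12, Lien 15, AngII 10 and NS 2 lay below 5 FPKM, while 9 of the other 11 libraries lay above 10, so low and high libraries occurred in all 3 groups. The protein-coding transcript of Itga1 made up 46.1% (Lien 15) to 94.8% (Lien 14) of these values. The rest was annotated as retained introns or processed transcripts. Gm49395, on the same strand, shares 685 of the 18599 exonic bases of Itga1 and stood at 0.278 to 3.48 FPKM. Group means for Itga1 were 7.79 ± 4.78 FPKM in Lien, 11.5 ± 5.76 in AngII and 13.2 ± 5.42 in NS (SD, n = 5 each). The Itga1 differences stood at -0.50 (SE 0.49, adjusted p = 0.767) for Lien minus AngII, -0.21 (SE 0.49, adjusted p = 0.918) for AngII minus NS and -0.71 (SE 0.49, adjusted p = 0.856) for Lien minus NS.

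Itga7 (ENSMUSG00000025348, chr10:128933818-128958282, plus strand) encodes a laminin receptor alpha chain of muscle. It showed 22.9, 21.05, 12.003, 12.3 and 18.8 FPKM in Lien 11 to 15, 15.4, 18.6, 10.2, 14.2 and 19.01 in AngII 6 to 10, and 15.6, 17.7, 16.2, 16.3 and 17.5 in NS 1 to 5. It varied least of the 10 genes, with a 2.24-fold span over the 15 libraries. Means for Itga7 were 17.4 ± 5.02 FPKM in Lien, 15.5 ± 3.58 in AngII and 16.7 ± 0.876 in NS (SD, n = 5 each). Differences of Itga7 were 0.14 (SE 0.19, adjusted p = 0.823) for Lien minus AngII, -0.13 (SE 0.19, adjusted p = 0.872) for AngII minus NS and 0.02 (SE 0.19, adjusted p = 0.994) for Lien minus NS. Its standard error was the smallest of the 10 genes, and the AngII minus NS interval ran from -0.54 to 0.29.

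Itga7 transcripts differ in a pair of alternative exons in the extracellular part and in an extra exon of the cytoplasmic tail, and these are shown because textbooks tie such forms to muscle type. ENSMUST00000218290 uses an exon of 132 bases (chr10:128941445-128941576), ENSMUST00000099112 one of 120 bases (chr10:128941822-128941941), and ENSMUST00000219427 has a tail exon of 113 bases that both others lack (chr10:128956611-128956723), all on the plus strand of GRCm38. Capitals mark the variable exon and lower case 15 shared bases on each side.
Itga7 132-base exon: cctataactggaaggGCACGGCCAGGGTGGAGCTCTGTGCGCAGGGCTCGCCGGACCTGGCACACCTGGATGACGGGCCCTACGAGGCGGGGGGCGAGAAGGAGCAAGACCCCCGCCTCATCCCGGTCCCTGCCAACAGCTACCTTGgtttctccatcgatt
Itga7 120-base exon: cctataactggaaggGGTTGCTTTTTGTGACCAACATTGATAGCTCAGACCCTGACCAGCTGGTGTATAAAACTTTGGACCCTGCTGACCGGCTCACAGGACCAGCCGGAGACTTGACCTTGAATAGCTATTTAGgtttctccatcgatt
Itga7 tail exon: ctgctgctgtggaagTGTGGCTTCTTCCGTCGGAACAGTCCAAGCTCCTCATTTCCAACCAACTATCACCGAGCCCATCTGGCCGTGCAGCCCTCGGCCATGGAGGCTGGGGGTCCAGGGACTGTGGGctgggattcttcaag

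The transcript with the 132-base exon made up 82.4% to 96.8% of Itga7 in every library. Of the FPKM in both transcripts with an alternative exon, the one with 120 bases took 4.70% ± 4.20 in Lien, 3.56% ± 3.14 in AngII and 5.84% ± 3.18 in NS (SD, n = 5 each), with the highest share, 12.1%, in Lien 13. The transcript with the tail exon stood at 1.501 FPKM in NS 3 and at 0.182 FPKM or less in each other library, AngII 9 with its raised skeletal muscle list included (0.113 FPKM).

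Itga9 (ENSMUSG00000039115, chr9:118606690-118901003, plus strand) encodes a receptor chain for tenascin and other matrix ligands. The libraries held 51.2, 44.6, 6.15, 20.3 and 40.2 FPKM in Lien 11 to 15, 28.5, 14.3, 18.2, 15.9 and 39.1 in AngII 6 to 10, and 24.3, 18.1, 18.7, 24.3 and 31.997 in NS 1 to 5. Lien 13 was the lowest of all 15 and Lien 11 the highest, and 3 of 5 Lien libraries lay above every AngII and NS library. The Itga9 means were 32.5 ± 18.7 FPKM in Lien, 23.2 ± 10.5 in AngII and 23.5 ± 5.60 in NS (SD, n = 5 each). Its log2 differences were 0.27 (SE 0.46, adjusted p = 0.857) for Lien minus AngII, -0.09 (SE 0.46, adjusted p = 0.966) for AngII minus NS and 0.18 (SE 0.46, adjusted p = 0.975) for Lien minus NS.

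Ilk (ENSMUSG00000030890, chr7:105736592-105742925, plus strand) encodes the integrin-linked kinase. Levels were 95.98, 90.03, 43.2, 63.1 and 78.9 FPKM in Lien 11 to 15, 123, 91.8, 66.7, 64.6 and 72.6 in AngII 6 to 10, and 68.02, 56.7, 62.9, 59.4 and 81.5 in NS 1 to 5. AngII 6 stood highest and Lien 13 lowest, and the other libraries lay between 56.7 and 96.0 FPKM. Means for Ilk were 74.3 ± 21.4 FPKM in Lien, 83.7 ± 24.4 in AngII and 65.7 ± 9.80 in NS (SD, n = 5 each). Its differences came to -0.18 (SE 0.22, adjusted p = 0.813) for Lien minus AngII, 0.31 (SE 0.22, adjusted p = 0.759) for AngII minus NS and 0.13 (SE 0.22, adjusted p = 0.964) for Lien minus NS. The sum includes transcripts annotated as retained introns or as targets of nonsense-mediated decay. The protein-coding transcripts averaged 21.9, 16.7 and 2.86 FPKM, against 74.6 for the whole gene. The place of Ilk in the order of levels thus rests in part on the other transcripts. ENSMUST00000154626, annotated as a retained intron, held 59.5 FPKM in AngII 6 and 7.77 to 21.0 FPKM in the other 14 libraries. It made up 48.4% of Ilk in AngII 6, the highest library, and 13.5% to 31.2% in the others. Taf10, on the opposite strand, covers 2106 of the 2744 exonic bases of Ilk and stood at 8.15 to 17.4 FPKM, and Rrp8, also opposite, covers 355, so reads of these genes could not be told apart there without strand.

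By the median, the 10 genes spread most in Lien and least in NS. The SD of log2(FPKM + 1) was smallest in NS for 9 of 10 genes, Itga1 being the exception, against 38.0% of all genes tested. The median SD of the 10 genes was 0.80 in Lien, 0.55 in AngII and 0.25 in NS, against 0.37, 0.33 and 0.32 over all genes. Without Lien 13 the count stayed at 9 of 10 (37.5% of all genes), with a Lien median of 0.67. Itga5 is an example, with an SD of 1.17 in Lien, 0.74 in AngII and 0.19 in NS. The smooth muscle list had its smallest SD in NS for 6 of 10 genes, with medians of 1.19, 0.67 and 0.35. Differences in spread between groups were not tested.

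Library by library, 5 of the 10 genes moved with the smooth muscle list: Itga5, Itga8, Itga9, Itgb1 and Ilk. Over 15 libraries these had an adjusted permutation p under 0.05 for Pearson's r, where 2.3% of all genes tested did. By Spearman's rho none of the 10 passed, where 0.0834% of all genes did. Unadjusted, the counts were 7 of 10 by Pearson's r (14.6% of all genes) and 6 of 10 by Spearman's rho (9.39%). P-values came from 100000 permutations, two-sided, and were adjusted over the 15588 genes tested for each of 3 marker lists. Itga5 had r = 0.86 (rho = 0.82, adjusted permutation p = 0.0087 and 0.1). The values were r = 0.84 for Itga8 (rho = 0.68, adjusted permutation p = 0.033 and 0.27), 0.83 for Itgb1 (rho = 0.66, 0.026 and 0.3), 0.80 for Itga9 (rho = 0.68, 0.041 and 0.27) and 0.80 for Ilk (rho = 0.70, 0.031 and 0.23). Itga7 had r = 0.74 and did not pass (rho = 0.73, adjusted permutation p = 0.057 and 0.19). Leaving out Lien 13 and AngII 8, the 2 libraries farthest from the median of the list, gave r = 0.79 for Itga5, 0.63 for Itga8, 0.68 for Itgb1, 0.58 for Itga9 and 0.71 for Ilk, each with an unadjusted permutation p of 0.041 or less. Itga7 then had r = 0.66 (unadjusted permutation p = 0.014). The 5 genes had been picked by the test over all 15 libraries, and the test without these 2 libraries was not run over all genes. In the 6 libraries with a nerve list mean of at least 3.82 (Lien 11, AngII 6, AngII 7, AngII 9, NS 2 and NS 3) the r values of these 5 genes were 0.82, 0.74, 0.71, 0.60 and 0.66, and in the 9 others 0.89, 0.93, 0.87, 0.97 and 0.93, in the same order. Itgav had r = 0.60 (rho = 0.50, adjusted permutation p = 0.21 and 0.57), which dropped to 0.35 without Lien 13 and AngII 8. Itgb5 (r = 0.24, rho = 0.21), Itgb3 (r = 0.17, rho = 0.34) and Itga1 (r = -0.14, rho = 0.10) did not pass either, with adjusted permutation p between 0.76 and 0.95. In the same 6 and 9 libraries r was 0.59 and 0.76 for Itga7, 0.41 and 0.61 for Itgav, 0.53 and 0.25 for Itgb5, -0.48 and 0.92 for Itgb3 and 0.28 and -0.41 for Itga1. Within the 9 libraries r for Itgb3 was thus as high as for the 5 genes above. Without Lien 13 and AngII 8 it was -0.32 over the other 13 libraries (unadjusted permutation p = 0.32). Lien 11, the lowest library of Itgb3, is among the 6, and Lien 13, its next lowest, is among the 9. The r values within the 6 and the 9 libraries were not tested.

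**Figure D5:**
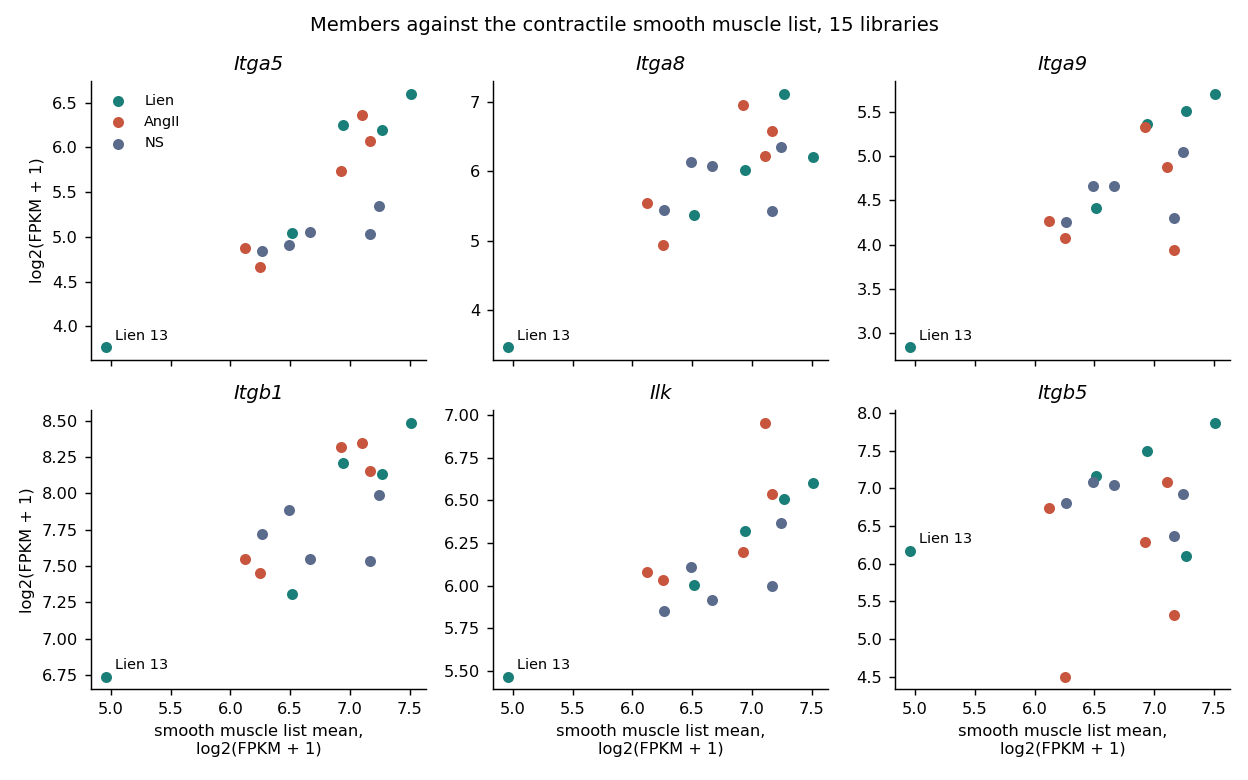
log2(FPKM + 1) of 6 genes (vertical axes) against the mean log2(FPKM + 1) of the 10-gene smooth muscle list (horizontal axis) in 15 libraries coloured by group. Itga5, Itga8, Itga9, Itgb1 and Ilk climb with the list and are lowest in Lien 13, whereas Itgb5 does not follow it (r = 0.24).

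With the 8-gene fibroblast list 0 of 10 genes passed, where 4.64% of all genes tested did by Pearson's r and 0.141% by Spearman's rho. Unadjusted, 3 of 10 did by Pearson's r (27.2% of all genes) and 0 of 10 by Spearman's rho (21.0%). The highest were Ilk (r = 0.66, rho = 0.51, adjusted permutation p = 0.082 and 0.24) and Itga5 (r = 0.64, rho = 0.49, adjusted permutation p = 0.089 and 0.27), and without Lien 11 and Lien 13 their r was 0.46 and 0.31. The 10-gene endothelial list gave 0 of 10, with r between -0.28 and 0.19, and 0.0% of all genes passed by either measure. Unadjusted, 0 of 10 passed by either, where 3112 of the 15588 genes did by Pearson's r and 3484 by Spearman's rho. All values of a library share its depth and its tissue make-up, and these correlations were computed after the values had been seen.

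Genes whose log2(FPKM + 1) was most like that of each chain over the 15 libraries are given as a description, among 7955 genes with a mean of at least 5 FPKM. Itga5 was nearest to Ccdc3 (r = 0.98), Marveld1 (0.98) and Wtip (0.97), and Itga8 to Cped1 (0.96), Gucy1b1 (0.94), a subunit of the nitric oxide receptor, and Dstn (0.94), an actin-severing protein. Itgb1 was nearest to Pde3a (0.96), a cyclic nucleotide phosphodiesterase, 2310022B05Rik (0.96) and 4930523C07Rik (0.96). Itga9 was nearest to Thsd4 (0.93), Vstm4 (0.91) and Perp (0.90), Ilk to Pxdc1 (0.92), Cdr2 (0.91) and Wtip (0.91), and Itga7 to Grk5 (0.89), the chain Itga3 (0.88) and Nfix (0.86). The likeness was lower for Itgav, with Mbd5 (0.86), Chsy1 (0.86) and Tbc1d2b (0.85), and for Itgb3, with Ipo9 (0.85), Rc3h1 (0.83) and Soga1 (0.80). Itgb5 was nearest to Pcsk5 (0.84), Ppil2 (0.82) and Tspan12 (0.79), and Itga1 to Mat2a (0.78), Dnm2 (0.74) and Pstk (0.69).

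Around the receptors, none of the other integrin chains, adaptors or ligands was called either. Of all genes tested, 0.0128% were called in Lien minus AngII, 0.077% in AngII minus NS and 0.231% in Lien minus NS. At an unadjusted p under 0.05 these shares were 6.4%, 7.04% and 7.06%. The median differences of all genes tested were -0.13, 0.12 and -0.01 in the same order. With libraries scaled to one median they were 0.06, -0.01 and 0.05. Of the 17 other chains 14 were tested, and 0 rose and 0 fell in each comparison, with median differences of -0.24 in Lien minus AngII, 0.14 in AngII minus NS and -0.01 in Lien minus NS (-0.04, 0.01 and 0.05 with libraries scaled to one median). At an unadjusted p under 0.05 there was 1 in Lien minus AngII, Itgb8, a chain that pairs with Itgav, at 0.582 ± 0.428 FPKM in Lien and 1.21 ± 0.349 in AngII, a log2 difference of -0.51 (SE 0.23, adjusted p = 0.740). Itga3 and Itga6, laminin receptor chains, were the most abundant of these, at 15.9 and 16.5 FPKM on average. Itga6 was 14.6 ± 3.69 FPKM in Lien and 18.1 ± 1.52 in AngII, with a log2 difference of -0.32 (SE 0.16, adjusted p = 0.740), and Itga3 was 19.7 ± 8.27 FPKM in Lien and 14.5 ± 5.27 in AngII, with a log2 difference of 0.40 (SE 0.31, adjusted p = 0.742). In AngII minus NS the smallest unadjusted p fell to the leukocyte chains Itgax, at 1.52 ± 0.980 FPKM in AngII and 0.683 ± 0.267 in NS, a log2 difference of 0.52 (SE 0.29, adjusted p = 0.730), and Itgal, at 5.79 ± 6.16 FPKM in AngII and 1.90 ± 1.15 in NS, a log2 difference of 0.79 (SE 0.58, adjusted p = 0.763). Itgal reached 6.42 FPKM in Lien 11, 10.1 in AngII 7 and 14.5 in AngII 9, and the 8-gene T cell list was high in the same libraries, with means of 2.76 in Lien 11, 4.28 in AngII 7 and 4.44 in AngII 9. NS 2 followed with 3.77 FPKM and a list mean of 3.34. The part of T cells in the difference was not tested.

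Of 35 adaptor and kinase genes 34 were tested and 0 were called in any comparison. Their median differences were -0.17, 0.15 and -0.01 in Lien minus AngII, AngII minus NS and Lien minus NS, and 0.03, 0.02 and 0.05 with libraries scaled to one median. For all genes tested these medians were -0.13, 0.12 and -0.01, and 0.06, -0.01 and 0.05 when scaled. At an unadjusted p under 0.05 there were 2 in Lien minus AngII, where 6.4% of all genes tested passed. There were 0 in AngII minus NS (7.04% of all genes) and 0 in Lien minus NS (7.06%). The 2 in Lien minus AngII were Src and Crk. Src, a tyrosine kinase at adhesions, was 3.997 ± 1.88 FPKM in Lien and 6.44 ± 1.42 in AngII, a log2 difference of -0.64 (SE 0.24, adjusted p = 0.740). The adaptor downstream of it, Crk, was 27.4 ± 13.1 FPKM in Lien and 40.5 ± 3.12 in AngII, a log2 difference of -0.71 (SE 0.29, adjusted p = 0.740). Crk was 18.3, 35.3, 32.04, 9.52 and 41.6 FPKM in Lien 11 to 15, 43.3, 39.01, 35.7, 42.4 and 41.9 in AngII 6 to 10, and 34.4, 34.2, 35.7, 34.4 and 36.01 in NS 1 to 5, so that Lien 14 and Lien 11 stood below all other libraries. Vcl, which encodes the adhesion protein vinculin, was 37.6 ± 7.87 FPKM in AngII and 27.1 ± 4.74 in NS, with a log2 difference of 0.44 (SE 0.23, adjusted p = 0.716), and 38.7 ± 12.6 FPKM in Lien, with a log2 difference of 0.45 (SE 0.23, adjusted p = 0.749) in Lien minus NS. Lims1, an Ilk partner, was 7.14 ± 8.92 FPKM in AngII and 12.3 ± 6.91 in NS, with a log2 difference of -0.99 (SE 0.57, adjusted p = 0.732). The most abundant were Csrp1, at 398 FPKM on average, and Actn4, at 167 FPKM, and neither was called, with log2 differences of -0.24 (SE 0.43, adjusted p = 0.863) and 0.23 (SE 0.20, adjusted p = 0.752) in Lien minus AngII.

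The 35 ligand genes in the table were all tested, and 0 were called. Their medians were -0.07, 0.28 and 0.15 in Lien minus AngII, AngII minus NS and Lien minus NS, and 0.12, 0.14 and 0.21 when libraries were scaled to one median. For all genes tested these medians were -0.13, 0.12 and -0.01, and 0.06, -0.01 and 0.05 when scaled. Unadjusted, 1 was higher and 1 lower in each comparison. Of all genes tested, 6.4%, 7.04% and 7.06% passed unadjusted in Lien minus AngII, AngII minus NS and Lien minus NS. Tenascin C, from Tnc, a ligand of the Itga9 chain, measured 1.13, 2.31, 2.60, 1.94 and 2.89 FPKM in Lien 11 to 15, 6.76, 6.28, 8.02, 6.62 and 1.18 in AngII 6 to 10, and 3.22, 2.72, 0.179, 1.35 and 3.31 in NS 1 to 5. AngII 6 to 9 were above every other library and AngII 10 was among the lowest. Its log2 difference was -0.97 (SE 0.41, adjusted p = 0.740) in Lien minus AngII and 1.10 (SE 0.41, adjusted p = 0.617) in AngII minus NS. Tnxb, which encodes tenascin X, was at 0.787 to 5.46 FPKM in Lien, listed at 0 in all 5 AngII libraries, and listed at 0 in NS 1 and NS 2 but at 3.21, 2.80 and 6.09 FPKM in NS 3 to 5 (adjusted p = 0.740 in Lien minus AngII and 0.583 in AngII minus NS). Ccn1, a secreted ligand of several integrins, was 74.02 ± 18.5 FPKM in Lien and 154 ± 71.7 in NS, with a log2 difference of -0.95 (SE 0.32, adjusted p = 0.485), and the basement membrane collagen gene Col4a2 was 130.1 ± 40.8 FPKM in Lien and 82.6 ± 20.3 in NS, with a log2 difference of 0.64 (SE 0.24, adjusted p = 0.588). The most abundant ligand genes were Ccn2, with a mean of 539 FPKM, and Col1a2, with 378 FPKM. Col1a2 was 431 ± 108 FPKM in AngII and 241 ± 142 in NS, with a log2 difference of 1.07 (SE 0.52, adjusted p = 0.703), and Ccn2 was 658 ± 359 FPKM in AngII and 388 ± 48.9 in NS, with a log2 difference of 0.57 (SE 0.53, adjusted p = 0.794).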

How the data were processed

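The deposited table holds 1 value per transcript and library for 131437 transcripts in 15 libraries. The authors' files name no unit for these values, and they were taken as FPKM because low values lay on whole steps that shrink with transcript length (99.7% to 99.8% of low values, within 0.05 of a step). No source used here names the depth, the aligner, the counting method or the genome build. Taking 4 steps as 1 fragment, which is an assumption, the libraries would hold 1.58e+07 to 1.93e+07 fragments. Libraries were made from rRNA-depleted total RNA, per the labels' protocols.

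Ensembl identifiers (101208 rows, of which 99981 matched GENCODE M21, GRCm38) were summed per gene. The other 30229 rows are assembled transcripts without an Ensembl identifier, 11.0% to 17.0% of the summed FPKM of a library, and entered no gene value, nor did 1227 unmatched rows. The 15588 genes that reached 0.5 FPKM in 5 or more libraries were tested with limma 3.58.1 in R 4.3.3 on log2(FPKM + 1), with trend and robust options, 3 group means over 15 libraries, two-sided, and Benjamini-Hochberg adjustment. Fold changes on this scale understate the change of low genes. The same fit was run on 30435 transcripts. Tested on simulated data for AngII minus NS with 200 of 15588 genes changed, it recovered 49.3% of changes of 2-fold and 87.7% of changes of 4-fold. The changed genes were drawn from all genes tested, with noise independent between genes. The 10 genes spread more than genes at large in Lien (median SD 0.80 against 0.37) and in AngII (0.55 against 0.33). These rates therefore do not give the recovery for the 10 genes. Correlations used permutation tests, adjusted over all genes tested, in Python 3.11.15 with numpy 2.4.6.

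Named genes were the 10 members, the 2 genes of each list with the smallest p in each comparison and the 2 most abundant, and the 3 genes most like each member. Members, lists and marker sets were chosen with earlier results of these data known. The labels do not say that libraries came from separate mice, so p-values measure the spread between these libraries, which may be technical. Alternatives covered scaling, pseudocount, filters, the variance model, tissue covariates and left-out libraries.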

Additional observations from a re-analysis of the deposited data

Results flagged for a closer look

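Itga1 in NS 2 stood apart from the other libraries of its group, at 3.50 FPKM where the other 4 NS libraries held 14.9 to 16.05 FPKM. Its gap to the nearest of them was 0.912 of the group's range, above the limit of 0.71 that about 1 in 20 groups of 5 passes by chance, and it was 1 of 30 groups checked for the 10 genes. Values as low occurred in the other groups, at 3.06 FPKM in Lien 15, 4.19 FPKM in Lien 12 and 3.19 FPKM in AngII 10.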

How the results depend on the processing

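No alternative called any of the 10 genes, or any gene of the 3 lists, at an adjusted p under 0.05 in limma: the smallest adjusted p over 930 alternative values was 0.296, for Itgb3 in Lien minus AngII without Lien 11, and with Lien 13 left out counted once, 629 of 900 values differed from those reported and 87 of them changed sign. The counts of all genes called moved more. In Lien minus AngII, 2 genes were called and 1 was with quantile normalization, one median, at least 1 FPKM in 10 libraries, only the 2 groups fitted, muscle covariates, or without NS 1, NS 5 and AngII 8, and 4 within the 9 libraries low in nerve RNA. In AngII minus NS, 12 were called, against 23 with quantile normalization, 6 with one median, 2 with no filter on low values, 19 with only the 2 groups, 0 with muscle covariates, 23 with the nerve list, 25 with the brown fat list, 7 without NS 3 and AngII 9, 0 without NS 1, NS 5 and AngII 8, and 0 within the 9 libraries. In Lien minus NS, 36 were called, against 23 with no filter, 12 with only the 2 groups, 12 with muscle covariates, 59 with the nerve list, 58 with the brown fat list, 20 without NS 3 and AngII 9, 4 without NS 1, NS 5 and AngII 8, 21 without Lien 13 and 11 within the 9 libraries. Leaving out 1 library at a time gave 1 to 3, 1 to 17 and 11 to 37 genes in Lien minus AngII, AngII minus NS and Lien minus NS. The cause was not tested.

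All 87 sign changes were short of the threshold. Under quantile normalization the differences that changed sign were 0.17 for Itgav in Lien minus AngII, -0.0728 for Itgav and -0.12 for Itgb3 in AngII minus NS, and -0.00725 for Itgb1 in Lien minus NS. With libraries scaled to one median the differences that changed sign were 0.15 for Itgav, 0.00719 for Itgb1 and 0.0140 for Ilk in Lien minus AngII, and -0.0694 for Itgav and -0.12 for Itgb3 in AngII minus NS. With libraries scaled to one sum without mitochondrial genes the differences that changed sign were -0.0177 for Itgb3 in AngII minus NS, and -0.00747 for Itga7 in Lien minus NS. With a pseudocount of 0.1 the differences that changed sign were -0.0282 for Itgav in Lien minus NS. With the skeletal muscle and cardiomyocyte lists as covariates the differences that changed sign were -0.0375 for Itga5 in Lien minus AngII, 0.12 for Itga1, -0.18 for Itga8, -0.21 for Itgav and -0.0519 for Itgb1 in AngII minus NS, and -0.19 for Itga7, -0.11 for Itga9, -0.29 for Itgav, -0.31 for Itgb1, -0.27 for Itgb5 and -0.0465 for Ilk in Lien minus NS. With the nerve list as covariate the differences that changed sign were 0.13 for Itgav in Lien minus AngII, and -0.0220 for Itgav in AngII minus NS. Without NS 3 and AngII 9 the differences that changed sign were -0.19 for Itga5 in Lien minus AngII, -0.0268 for Itgav in AngII minus NS, and -0.0320 for Itgav, -0.00848 for Itgb1 and -0.00403 for Itgb5 in Lien minus NS. Without NS 1, NS 5 and AngII 8 the differences that changed sign were -0.14 for Itga5 in Lien minus AngII, and 0.10 for Itga1 and 0.15 for Itga9 in AngII minus NS. Without Lien 13 the differences that changed sign were 0.13 for Itga8, 0.15 for Itgav and 0.0699 for Itgb1 in Lien minus AngII, and 0.29 for Itga8 in Lien minus NS. Within the 9 libraries low in nerve RNA the differences that changed sign were 0.37 for Itga1, -0.26 for Itga9 and 0.15 for Itgav in Lien minus AngII, 0.00330 for Itga9, -0.40 for Itgav and -0.10 for Itgb3 in AngII minus NS, and -0.0749 for Itga7, -0.26 for Itga9, -0.25 for Itgav, -0.21 for Itgb1, -0.28 for Itgb5 and -0.0563 for Ilk in Lien minus NS. Leaving out each library in turn also turned some signs. In Lien minus AngII these ranges were -0.23 to 0.48 for Itga5, -0.78 to 0.13 for Itga8, -0.24 to 0.15 for Itgav and -0.37 to 0.0699 for Itgb1. In AngII minus NS these ranges were -0.59 to 0.14 for Itga1, -0.20 to 0.00318 for Itga7, -0.0679 to 0.44 for Itga8, -0.30 to 0.0505 for Itga9, -0.11 to 0.24 for Itgav and -0.0520 to 0.12 for Itgb3. In Lien minus NS these ranges were -0.0895 to 0.13 for Itga7, -0.62 to 0.29 for Itga8, -0.0533 to 0.66 for Itga9, -0.17 to 0.22 for Itgav, -0.14 to 0.30 for Itgb1 and -0.11 to 0.33 for Itgb5. Using protein-coding transcripts only, an alternative chosen after seeing the data, changed no sign. The settings for the variance model, the filter on low values and the groups fitted leave the differences themselves as they are.

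No paired analysis was possible because the replicate numbers run 11 to 15 in Lien, 6 to 10 in AngII and 1 to 5 in NS, so no number is shared between groups. Low values, such as those of Itgav at 1.11 to 5.22 FPKM and of Itgb3 in Lien 11 at 0.310 FPKM, rest on fewer fragments than higher values of the same gene. The assembled transcripts without an Ensembl identifier, 13.2% of the summed FPKM in Lien 11, could not be tied to genes. Whether they hold reads of the 10 genes was not tested.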
